A study of Mus musculus with 20 samples.

Results

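Claudins and the tight junction proteins that work beside them were followed across 6 groups of mouse mammary tumors and tumor cells with and without cathepsin D, the lysosomal protease encoded by Ctsd. The 9 genes, *Cldn1*, *Cldn3*, *Cldn4*, *Cldn7*, *Ocln*, *Marveld2*, *Marveld3*, *Tjp3* and *Cgn*, were picked by name, with earlier results of these data known, and all 9 were found among the 45706 gene identifiers of the count files. Another 49 genes of tight junctions are given as counts beside them. Tight junctions seal the space between neighbouring epithelial cells near their apical side and hold apical and basolateral membrane apart. Claudins form the strands and set how tight or ion-selective the seal is, occludin and its MARVEL-domain relatives join these strands, and a cytoplasmic plaque of scaffold proteins ties them to actin. Mammary luminal epithelium is rich in such junctions, and their loss is a classic trait of epithelial cells that turn mesenchymal.

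All mice were C57BL/6N and carried the polyoma middle T oncogene (PyMT) under the MMTV promoter, which drives mammary tumors. Tumor RNA came from 4 control mice, labelled wild type, and from 4 MMTV-cre;*Ctsd*-/- mice, all 18 weeks old. The study pools mice with untargeted or floxed *Ctsd* alleles as controls, and MMTV-cre deletes the floxed alleles in mammary epithelium. A reporter in the study marked recombination in this epithelium and not in the fat around it. By the study, cathepsin D left in *Ctsd*-/- tumors probably comes from stromal cells. The cells were PyMT tumor cells that had immortalized in culture, grown out of end-stage tumors of *Ctsd*+/+ and MMTV-cre;*Ctsd*-/- mice. The study speaks of 1 line per genotype, so a genotype difference in cells cannot be told apart from a difference between these lines. They were kept in DMEM/F12 with 1% fetal calf serum (FCS) for 10 days (1% FCS) or for 12 weeks (1% FCS LT), a mild starvation, with 3 samples in each of the 4 groups. The study counts its replicates as independent experiments and calls them biological replicates. The labels do not say how the 3 samples of a group were kept apart, so p-values are read here as measures of the spread between these samples. Tumors had between 49725437 and 64291587 counts on genes (median 61672663) and cell samples between 33622831 and 40239762 (median 37481452). Levels are CPM, counts relative to the scaled size of the library, a fold change (FC) is written on the log2 scale with its standard error (SE), and adjusted p-values are those of edgeR over all genes tested. The SE was worked back from the test, as the size of the log2 FC divided by the square root of its F statistic. In cells a gene was counted as higher or lower when its log2 FC was beyond 1 in size with an adjusted p under 0.05, and in tumors at a p under 0.1 without correction. The p thresholds are those of the study. Its fold bound is stated for the long-term comparison and was applied here to all comparisons of cells.

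*Ctsd* itself was measured first as a check of the labels. Control tumors had 1860, 2617, 1781 and 2532 CPM and *Ctsd*-/- tumors 797, 360.2, 1295 and 1233 CPM. *Ctsd*+/+ cells had 4199, 2858 and 1267 CPM in 1% FCS and 1627, 1667 and 1895 CPM in 1% FCS LT. *Ctsd*-/- cells had 192, 141 and 131 CPM in 1% FCS and 123, 114 and 151 CPM in 1% FCS LT. In each of the 3 comparisons every sample labelled *Ctsd*-/- lay below every sample of the other genotype, and RNA of the gene was still counted in all of them. The log2 FC was −1.25 in tumors (SE 0.380, adjusted p = 0.463), −4.16 in 1% FCS (SE 0.371, adjusted p = 4.34e-06) and −3.74 in 1% FCS LT (SE 0.364, adjusted p = 1.24e-05).

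Positions refer to mouse build GRCm38 with gene models of GENCODE M21. *Cldn3* (ENSMUSG00000070473, chromosome 5 from 134986214 to 134987472, plus strand) and *Cldn4* (ENSMUSG00000047501, chromosome 5 from 134945119 to 134946934, minus strand) are neighbours, and each consists of 1 exon. *Cldn7* (ENSMUSG00000018569) has 5 exon blocks on chromosome 11 from 69964779 to 69967885, and *Cldn1* (ENSMUSG00000022512) has 4 on chromosome 16 from 26356642 to 26371841. *Ocln* (ENSMUSG00000021638, 10 exon blocks) and *Marveld2* (ENSMUSG00000021636, 7 exon blocks) are neighbours as well, on the minus strand of chromosome 13 from 100496507 to 100552718 and from 100595957 to 100616971. *Marveld3* (ENSMUSG00000001672) spans 109947914 to 109962203 of chromosome 8 in 4 exon blocks. The plaque genes have the most exon blocks, 21 for *Tjp3* (ENSMUSG00000034917, chromosome 10 from 81273207 to 81291581) and 20 for *Cgn* (ENSMUSG00000068876, chromosome 3 from 94760069 to 94786492). *Cldn3* and *Tjp3* each share 40 exonic bases with a gene on the other strand, and in tumors, where counts were used without regard to strand, reads lying there were set aside as belonging to several genes.

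Per kilobase of exon, the claudins *Cldn3*, *Cldn7* and *Cldn4* were the 3 most abundant of the 9 in all 6 groups. In control tumors *Cldn3* led with 564 ± 118 CPM per kb (SD, n = 4), followed by *Cldn7* with 261 ± 63.2 and *Cldn4* with 137 ± 44.7, and the ranges of these 3 genes did not overlap. In *Ctsd*-/- tumors *Cldn3* had 638 ± 107 CPM per kb, while *Cldn7* (212 ± 42.0) and *Cldn4* (171 ± 15.2) overlapped. In all 4 groups of cells the order was *Cldn4*, *Cldn3*, *Cldn7* and then *Cgn*. *Cldn4* had 118 ± 85.0 CPM per kb (SD, n = 3) in *Ctsd*+/+ cells in 1% FCS, where its range overlapped that of *Cldn3*, and 1214 ± 70.7 in *Ctsd*-/- cells in 1% FCS. In 1% FCS LT it had 583 ± 169.5 CPM per kb in *Ctsd*+/+ and 1133 ± 389 in *Ctsd*-/- cells. *Tjp3* had the lowest mean of the 9 in every group, overlapping *Cldn1* in *Ctsd*-/- tumors and in *Ctsd*+/+ cells in 1% FCS LT, with 3.49 ± 0.519 CPM per kb in control tumors and 0.0209 ± 0.0099 in *Ctsd*+/+ cells in 1% FCS. *Cldn1* was the gene whose place moved most between the genotypes of the cells, at rank 5 in *Ctsd*-/- and rank 8 in *Ctsd*+/+ cells at both culture times.

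**Figure D1:**
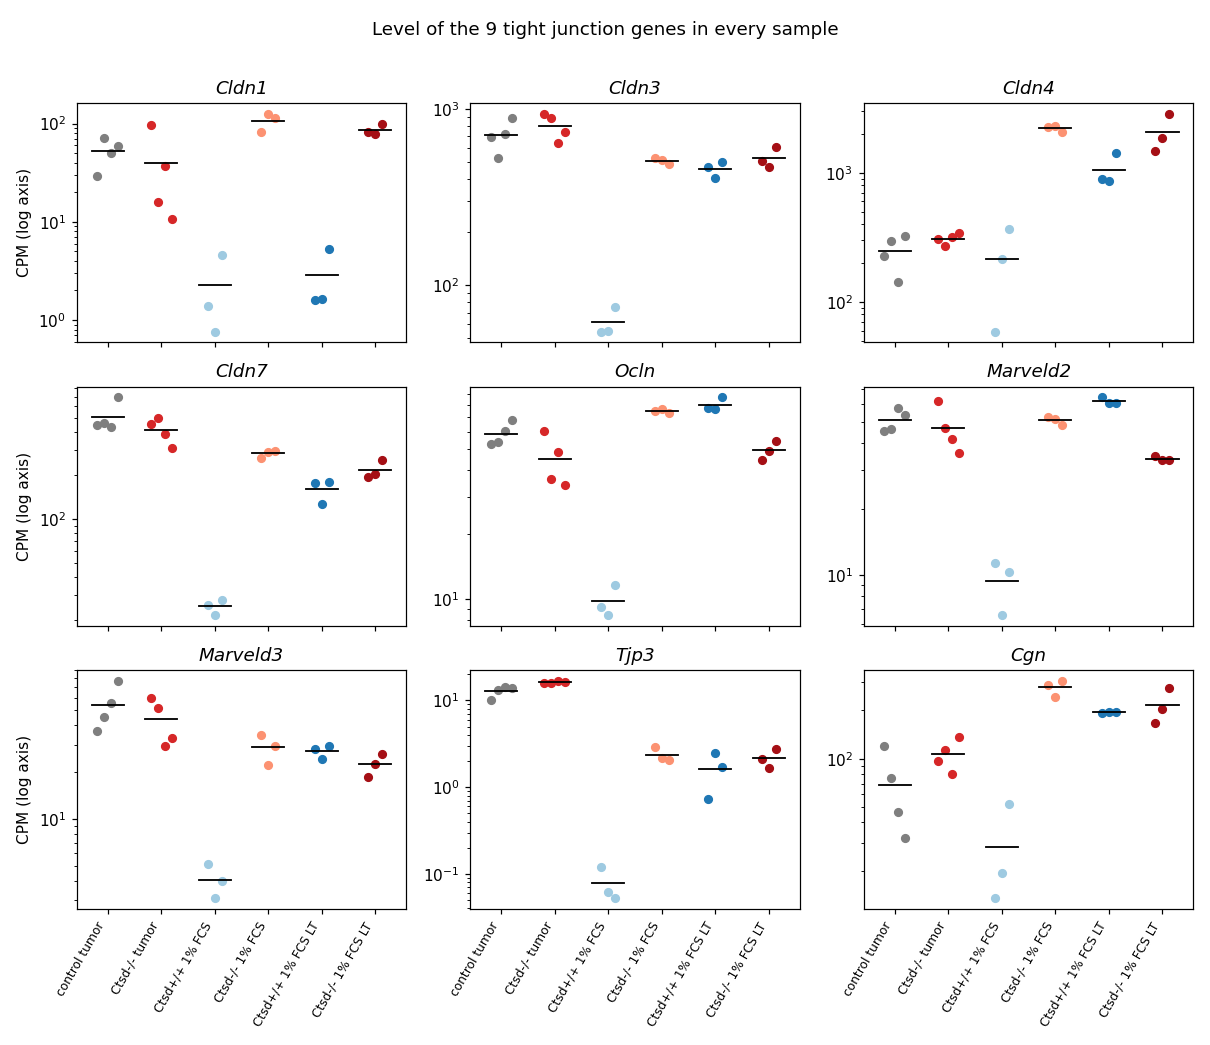
Level of each of the 9 genes in every sample, in CPM on a log axis, over the 6 groups on the horizontal axis, with points for samples and a line for the group mean. The *Ctsd*+/+ cells in 1% FCS have the lowest mean of the 6 groups for all 9 genes, with *Cldn4* from 59.0 to 368 CPM and *Cldn1* from 0.763 to 4.61 CPM.

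The genotypes were first compared after 10 days in 1% FCS, the condition in which the study looked for effects of a missing cathepsin D under mild starvation. All 9 genes were higher in *Ctsd*-/- than in *Ctsd*+/+ cells, and for 9 of 9 all *Ctsd*-/- samples lay above all *Ctsd*+/+ samples, beside 27.6% of all genes. Of all 15178 genes tested, 10.3% were higher and 14.6% lower at the same threshold. The median log2 FC of the 9 genes was 3.29 beside 0.00025 over all genes. These are bulk samples, in which fewer cells that carry a transcript and less of it per cell cannot be told apart.

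*Cldn1*, the claudin known for the water barrier of the skin, had 1.38, 0.763 and 4.61 CPM in *Ctsd*+/+ cells, against 82.5, 125 and 115 CPM in *Ctsd*-/- cells. It was close to absent in *Ctsd*+/+ cells, highest there in replicate 3, and plentiful in every *Ctsd*-/- sample, a 47.8-fold difference of means (log2 FC 5.55, SE 0.617, adjusted p = 2.22e-05). *Cldn3*, a barrier-forming claudin of simple epithelia, had 54.7, 54.8 and 75.5 CPM in *Ctsd*+/+ and 529.8, 515 and 488 CPM in *Ctsd*-/- cells. The samples of each genotype lay close together, 8.28-fold apart (log2 FC 3.05, SE 0.159, adjusted p = 1.12e-07). *Cldn4*, which tightens the paracellular path for ions, had 59.0, 213 and 368 CPM in *Ctsd*+/+ and 2270, 2288 and 2057 CPM in *Ctsd*-/- cells. The *Ctsd*+/+ samples were spread widely and all lay below the *Ctsd*-/- samples, with a log2 FC of 3.37 (SE 0.526, adjusted p = 0.000274). *Cldn7*, a claudin that also lines the basolateral membrane and binds EpCAM, had 25.3, 21.7 and 27.6 CPM in *Ctsd*+/+ and 264.5, 292 and 294.5 CPM in *Ctsd*-/- cells. Its genotypes were 11.4-fold apart with little spread in either (log2 FC 3.51, SE 0.168, adjusted p = 7.24e-08).

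Occludin was the first membrane protein found in tight junctions, and its gene *Ocln* had 9.21, 8.46 and 11.7 CPM in *Ctsd*+/+ and 75.3, 76.8 and 73.7 CPM in *Ctsd*-/- cells. The samples of a genotype hardly differed, and the log2 FC was 2.94 (SE 0.132, adjusted p = 4.96e-08). *Marveld2* encodes tricellulin, which seals the corners where 3 cells meet, and had 11.4, 6.59 and 10.3 CPM in *Ctsd*+/+ and 52.5, 51.4 and 48.1 CPM in *Ctsd*-/- cells. It showed the smallest of the 9 differences, 5.38-fold (log2 FC 2.43, SE 0.165, adjusted p = 6.22e-07). *Marveld3*, the remaining MARVEL-domain protein of tight junctions, had 5.16, 3.08 and 3.98 CPM in *Ctsd*+/+ and 34.7, 22.3 and 29.3 CPM in *Ctsd*-/- cells. All *Ctsd*-/- samples were above all *Ctsd*+/+ samples, with a log2 FC of 2.82 (SE 0.223, adjusted p = 1.91e-06).

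In the cytoplasmic plaque, *Tjp3* encodes ZO-3, a scaffold that binds claudins and occludin. It had 4, 2 and 2 counts in the *Ctsd*+/+ samples, or 0.120, 0.0611 and 0.0523 CPM, and 2.92, 2.16 and 2.04 CPM in the *Ctsd*-/- samples. The gene was thus near the detection limit in *Ctsd*+/+ cells and low in *Ctsd*-/- cells, where it summed to 268 counts. The ratio of the scaled counts was 31.4 (95% interval 15.7 to 73.4, counting error only), with an adjusted p of 2.04e-05. *Cgn* encodes cingulin, which connects ZO proteins to actomyosin and microtubules, and had 13.5, 19.3 and 52.2 CPM in *Ctsd*+/+ and 286, 242 and 306 CPM in *Ctsd*-/- cells. Its highest *Ctsd*+/+ sample, replicate 3, remained far below the *Ctsd*-/- samples (log2 FC 3.29, SE 0.412, adjusted p = 5.35e-05).

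Within the *Ctsd*+/+ cells in 1% FCS, replicate 3 had the highest level of *Cldn1*, *Cldn3*, *Cldn4*, *Cldn7*, *Ocln* and *Cgn*. Without it the log2 FC between genotypes was 6.62 for *Cldn1*, 3.99 for *Cldn4* and 4.07 for *Cgn*, and the median of the 9 genes was 3.57. Replicate 1 of both genotypes carries an LR number of its own in the library label, and in a fit of the 8 cell samples that share 1 LR number all 9 genes were higher, with a median of 2.94.

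Markers of cell types were measured beside these differences. Of 15 epithelial reference genes (keratins, *Epcam*, *Cdh1* and others, none among the 9), *Ctsd*-/- cells had 14 at a higher and 1 at a lower level, with a median log2 FC of 2.49. Their summed level was 1316, 2001 and 2404 CPM in *Ctsd*+/+ and 11110, 14780 and 15310 CPM in *Ctsd*-/- cells, with *Krt18* or *Krt8* as the most abundant gene. The 9 tight junction genes together had 180, 328 and 554 CPM in *Ctsd*+/+ cells, which was 13.7%, 16.4% and 23.0% of the epithelial sum, and 3598, 3615 and 3413 CPM in *Ctsd*-/- cells, which was 32.4%, 24.5% and 22.3%. So the share of the epithelial sum overlapped between the genotypes while the levels did not. All 7 tested of 10 fibroblast markers were lower in *Ctsd*-/- cells (median −8.29). Their sum was 58510, 68390 and 36200 CPM in *Ctsd*+/+ and 16140, 12230 and 13030 CPM in *Ctsd*-/- cells, most of it *Fn1*, with 49250 ± 16200 CPM in *Ctsd*+/+ and 13780 ± 2066 in *Ctsd*-/- cells (SD, n = 3). *Vim*, named after its values were seen, had 3066 ± 375 CPM in *Ctsd*+/+ and 9.82 ± 1.24 in *Ctsd*-/- cells. The fibroblast markers *Thy1* and *Lum* were at 0 in all 6 of these samples and *Dcn* at 0.742 CPM or 0 in the group means. These are the scarce or absent markers of the list. The 7 tested, all lower in *Ctsd*-/- cells, include markers not named here. Replicate 3 of the *Ctsd*+/+ cells, highest in most of the 9 genes, also had the highest epithelial and the lowest fibroblast sum of its group. Of the leukocyte markers 2 of 3 tested were higher, with sums of at most 27.4 CPM, of the endothelial markers 1 of 4 tested, with sums of at most 6.63 CPM, and of the adipocyte markers the 1 tested, with sums of at most 0.949 CPM. The part of these cell markers in the result was not tested.

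**Figure D2:**
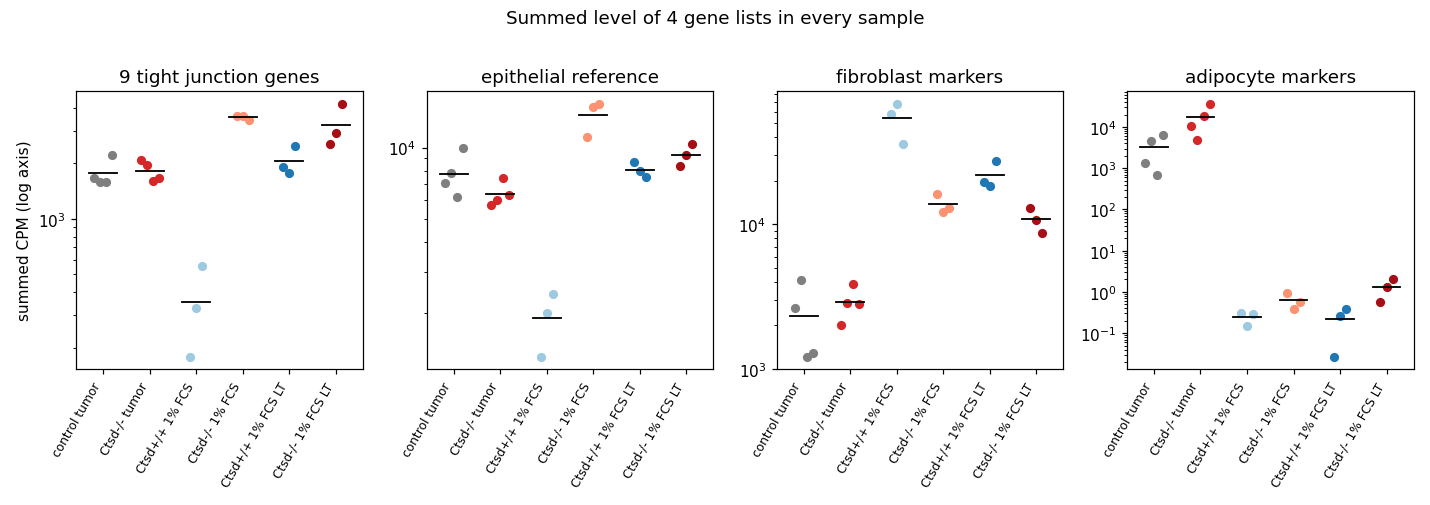
Summed CPM of the 9 tight junction genes, of the epithelial reference genes, of the fibroblast markers and of the adipocyte markers in every sample, on a log axis, over the 6 groups on the horizontal axis, with a line at the group mean. In *Ctsd*+/+ cells in 1% FCS the 9 genes sum to 354 ± 188 CPM and the fibroblast markers to 54370 ± 16490 CPM, against 3542 ± 112 and 13800 ± 2066 CPM in *Ctsd*-/- cells (SD, n = 3).

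The study sequenced these cells to ask how *Ctsd*-/- cells escape their growth block in long-term starvation, and used the change in *Ctsd*+/+ cells as a correction. In *Ctsd*+/+ cells 8 of the 9 genes rose from 1% FCS to 1% FCS LT and 0 fell, beside 11% of all genes tested that were higher and 12.3% that were lower after 12 weeks. For the same 8 of 9 genes all long-term samples lay above all samples of 1% FCS, as they did for 27.3% of all genes. The median log2 FC was 2.74 for the 9 genes and 0.0045 for all genes. This comparison shares the *Ctsd*+/+ samples in 1% FCS with the genotype difference above.

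Among the claudins, *Cldn3* reached 468, 405 and 503 CPM in *Ctsd*+/+ cells in 1% FCS LT, all far above the samples of 1% FCS (log2 FC 2.89, SE 0.158, adjusted p = 1.92e-07). *Cldn7* reached 178, 127 and 179 CPM, likewise above every sample of 1% FCS (log2 FC 2.70, SE 0.163, adjusted p = 3.13e-07). *Cldn4* reached 892, 870.3 and 1414 CPM, with replicate 3 the highest and no overlap with 1% FCS (log2 FC 2.31, SE 0.504, adjusted p = 0.00279). *Cldn1* was the exception, with 1.59, 1.65 and 5.27 CPM in 1% FCS LT. These values covered the same low range as in 1% FCS (log2 FC 0.32, SE 0.576, adjusted p = 0.679), and replicate 3 was again the highest. The direction for *Cldn1* rested on single samples: it was −0.49 without replicate 3 of 1% FCS LT, −0.08 without replicate 2 of 1% FCS and 1.41 without replicate 3 of 1% FCS. Only the last of these passed the threshold (adjusted p = 0.0496, beside 0.351 to 0.706 over the alternatives that keep all samples or 1 LR number).

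The MARVEL-domain genes rose by similar amounts. *Ocln* had 77.2, 76.8 and 86.6 CPM in *Ctsd*+/+ cells in 1% FCS LT, an 8.20-fold rise (log2 FC 3.03, SE 0.133, adjusted p = 7.23e-08). *Marveld2* had 64.4, 60.4 and 60.9 CPM (log2 FC 2.71, SE 0.166, adjusted p = 3.42e-07), and *Marveld3* had 27.9, 24.3 and 29.6 CPM (log2 FC 2.74, SE 0.223, adjusted p = 2.47e-06). Each of the 3 genes was thus several-fold above all its samples of 1% FCS, with little spread among the long-term samples. In the plaque, *Tjp3* had 0.730, 2.48 and 1.70 CPM, a count ratio of 21.4 over 1% FCS (95% interval 10.6 to 50.3, 187 against 8 counts, adjusted p = 5.61e-05). *Cgn* had 193, 197 and 195 CPM, the most even of the 9 genes in this group, and rose with a log2 FC of 2.78 (SE 0.403, adjusted p = 0.000179). Leaving out replicate 3 of *Ctsd*+/+ cells in 1% FCS gave 3.57 for *Cgn* and 2.96 for *Cldn4*, and without replicate 1 *Cldn4* had 1.86. Over the alternatives that keep all samples or 1 LR number *Cldn4* went down to 1.60 and kept its call.

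The marker lists moved as well between these culture times. Of the 15 epithelial reference genes 13 rose and 0 fell in *Ctsd*+/+ cells (median log2 FC 2.28), to sums of 8684, 7952 and 7546 CPM with *Krt7* as the most abundant. The 9 genes together had 1903, 1765 and 2475 CPM, or 21.9%, 22.2% and 32.8% of that sum. Of the 7 fibroblast markers tested 6 fell (median −9.69), to sums of 19660, 18390 and 27430 CPM that were again almost all *Fn1*. Of 3 leukocyte markers tested 2 rose, to sums of 55.3, 58.6 and 64.6 CPM with *Csf1r* as the most abundant, and of 4 endothelial markers 2 rose and 1 fell, with sums of at most 3.14 CPM. Neither direction held for the 1 adipocyte marker tested. Their part in the rise of the 9 genes was not tested.

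After 12 weeks in 1% FCS the genotypes differed far less. Of the 9 genes 1, *Cldn1*, was higher in *Ctsd*-/- cells and 0 were lower, beside 9.24% and 10.1% of all genes tested. By the adjusted p alone (under 0.05 in edgeR) the counts were 2 higher and 2 lower of 9, beside 20.5% and 19.1% of all genes, so these shares are close to the background. The median log2 FC was 0.21 for the 9 genes and 0.014 for all genes. *Cldn1* had 81.8, 79.2 and 98.4 CPM in *Ctsd*-/- cells, far above the 1.59 to 5.27 CPM of *Ctsd*+/+ cells. This was a 30.4-fold difference of means (log2 FC 4.92, SE 0.596, adjusted p = 6.5e-05), which ran from 4.64 without *Ctsd*+/+ replicate 1 to 5.73 without *Ctsd*+/+ replicate 3 of 1% FCS LT. *Cldn1* was the 1 gene of the 9 that separated the genotypes by more than the fold threshold at both culture times.

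The other claudins had *Ctsd*-/- levels at or somewhat above those of *Ctsd*+/+ cells in 1% FCS LT. *Cldn3* had 508, 472 and 608 CPM in *Ctsd*-/- cells, which overlapped the *Ctsd*+/+ samples (log2 FC 0.21, SE 0.147, adjusted p = 0.293). *Cldn4* had 1479, 1847 and 2845 CPM and *Cldn7* had 195, 204 and 254 CPM, and for both genes each *Ctsd*-/- sample lay above each *Ctsd*+/+ sample. The change amounted to 0.96 for *Cldn4* (SE 0.484, adjusted p = 0.139) and 0.43 for *Cldn7* (SE 0.152, adjusted p = 0.0409), so neither passed the threshold. Groups lay apart this way for 3 of 9 genes with *Cldn1* included, beside 27.9% of all genes. Occludin and tricellulin pointed the other way. *Ocln* had 44.5, 49.1 and 54.1 CPM and *Marveld2* had 34.7, 33.4 and 33.3 CPM in *Ctsd*-/- cells, in both cases with every sample below every *Ctsd*+/+ sample (2 of 9 genes, beside 26.4% of all genes). Their log2 FC of −0.70 (SE 0.122, adjusted p = 0.000798) and −0.87 (SE 0.155, adjusted p = 0.000941) had small adjusted p-values but were under the fold threshold. *Marveld3* (18.7, 22.7 and 26.3 CPM, log2 FC −0.27, adjusted p = 0.317), *Tjp3* (2.11, 1.67 and 2.78 CPM, log2 FC 0.42, adjusted p = 0.428) and *Cgn* (168, 204 and 274 CPM, log2 FC 0.14, adjusted p = 0.791) overlapped between the genotypes.

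Replicate 3 of both genotypes in 1% FCS LT carries a further LR number in the library label. In the 8 samples of 1 LR number *Cldn1* was again the 1 gene that was higher, and the log2 FC of *Cgn* changed sign to −0.07. Of the 15 epithelial reference genes edgeR called 0 higher and 3 lower in *Ctsd*-/- cells, with a median log2 FC of 0.04 and sums of 8400, 9285 and 10370 CPM. The 9 genes together had 2532, 2913 and 4196 CPM in *Ctsd*-/- cells, or 30.1%, 31.4% and 40.5% of the epithelial sum. Of the fibroblast markers 3 were higher and 1 lower of 7 tested (2 to 3 and 0 to 1 with 1 sample left out, 1 higher with limma-voom, and 4 higher and 0 lower in the samples of 1 LR number), with sums of 13020, 10760 and 8724 CPM in *Ctsd*-/- cells. *Vim* had 451 ± 389 CPM in *Ctsd*-/- and 3.70 ± 3.19 CPM in *Ctsd*+/+ cells (SD, n = 3), and *Fn1* 10340 ± 1722 and 21820 ± 4885 CPM. Of 3 leukocyte markers 1 was higher and 2 lower, of 4 endothelial markers 2 were higher, and the 1 adipocyte marker tested was higher. What these cell markers contribute was not tested.

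In *Ctsd*-/- cells the change from 1% FCS to 1% FCS LT was small for all 9 genes. By edgeR 0 of 9 were higher and 0 lower, beside 1.11% and 0.369% of all genes tested, and 3 of 9 had an unadjusted p under 0.05, beside 18% of all genes. The same 3 genes had it with DESeq2 and with limma-voom. The background itself is unsteady in this comparison: with 1 sample left out, 27 to 233 genes were higher (169 with all samples) and 20 to 58 lower (56 with all samples), and 405 were higher in the samples of 1 LR number. The median log2 FC was −0.35 for the 9 genes and −0.0014 for all genes. The 3 genes were *Ocln* (log2 FC −0.61, SE 0.122, adjusted p = 0.0282), *Marveld2* (−0.58, SE 0.155, adjusted p = 0.0738) and *Cldn7* (−0.38, SE 0.152, adjusted p = 0.212), and in each of them the long-term samples lay below all samples of 1% FCS (3 of 9, beside 11.9% of all genes). *Ocln* alone had an adjusted p under 0.05, beside 0.81% of all genes that were lower by that measure, with a change under the fold threshold. *Cldn1* went from 108 ± 22.2 to 86.5 ± 10.4 CPM (SD, n = 3; log2 FC −0.31, adjusted p = 0.792) and *Cldn3* from 511 ± 21.1 to 529 ± 70.1 CPM (0.05, adjusted p = 0.896). *Cldn4*, at 2205 ± 128 and 2057 ± 707 CPM, and *Cgn*, at 278 ± 32.4 and 215 ± 54.2 CPM, overlapped between the culture times, as did *Marveld3* and *Tjp3*. The signs of *Cldn3*, *Cldn4* and *Tjp3* changed when single samples were left out. Among the 15 epithelial reference genes 0 rose and 1 fell by the threshold, 14 had a log2 FC below 0 (median −0.42), and for 8 all long-term samples lay below all samples of 1% FCS, beside 11.9% of all genes. The medians of these genes and of the 9 were thus both below 0. Among the fibroblast markers 1 of 7 tested rose and 0 fell. *Cdh1*, the reference gene that fell, went from 954 ± 37.7 to 439 ± 57.6 CPM, and the marker that rose was *Vim*, both named after their values were seen. The rise of *Vim* was not called without replicate 1, 2 or 3 of *Ctsd*-/- cells in 1% FCS, and with DESeq2 or in the samples of 1 LR number 2 fibroblast markers rose.

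The study corrected the long-term change of *Ctsd*-/- cells for that of *Ctsd*+/+ cells, which equals the genotype difference in 1% FCS LT minus the one in 1% FCS. Among the genes lower in that comparison it found a cluster of tight junction proteins. From its RNA data the study describes *Ctsd*-/- cells as losing contacts between epithelial cells in long-term starvation. In this interaction of genotype and culture time 8 of the 9 genes were lower and 0 higher, beside 8.12% and 11% of all genes tested. The median was −3.09 for the 9 genes and −0.0035 for all genes. The values ran from −2.41 for *Cldn4* (SE 0.688, adjusted p = 0.0207) to −4.47 for *Tjp3* (SE 0.671, adjusted p = 0.000475). *Ocln* at −3.64 (SE 0.179) had the smallest adjusted p of the 9, 6.79e-07, followed by *Marveld2* at −3.30 (SE 0.226, adjusted p = 2.56e-06), *Cldn7* at −3.08 (SE 0.220, adjusted p = 3.28e-06) and *Cldn3* at −2.84 (SE 0.212, adjusted p = 3.89e-06). *Cgn* had −3.15 (adjusted p = 0.00122) and *Marveld3* −3.09 (adjusted p = 2.51e-05). *Cldn1* did not pass, at −0.63 (SE 0.757, adjusted p = 0.571).

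A negative interaction can come from a fall in *Ctsd*-/- cells, from a rise in *Ctsd*+/+ cells or from both, and the values of each genotype tell these apart. For all 8 genes the long-term rise in *Ctsd*+/+ cells passed the threshold and the change in *Ctsd*-/- cells did not. *Ocln*, for example, went from 9.78 ± 1.68 to 80.2 ± 5.54 CPM in *Ctsd*+/+ and from 75.3 ± 1.56 to 49.2 ± 4.82 CPM in *Ctsd*-/- cells (SD, n = 3). *Cldn3* went from 61.7 ± 12.0 to 459 ± 49.5 CPM in *Ctsd*+/+ and stayed between 472 and 608 CPM in every *Ctsd*-/- sample of both culture times. So the group that stood apart was *Ctsd*+/+ cells in 1% FCS, and the interaction shares these samples with the 2 comparisons that involve them. *Cldn4* did not pass in 2 of the fits that left out a sample, with adjusted p-values of 0.0526 without replicate 1 and 0.0515 without replicate 2 of *Ctsd*-/- cells in 1% FCS LT. Over the alternatives that keep all samples or 1 LR number its adjusted p was 0.00082 to 0.0219. The log2 FC of *Cldn4* was −3.07 without replicate 3 of *Ctsd*+/+ cells in 1% FCS, and that of *Cgn* was −3.95. Among the marker lists 13 of 15 epithelial reference genes were lower in the interaction (median −2.46) and 4 of 7 fibroblast markers higher.

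**Figure D3:**
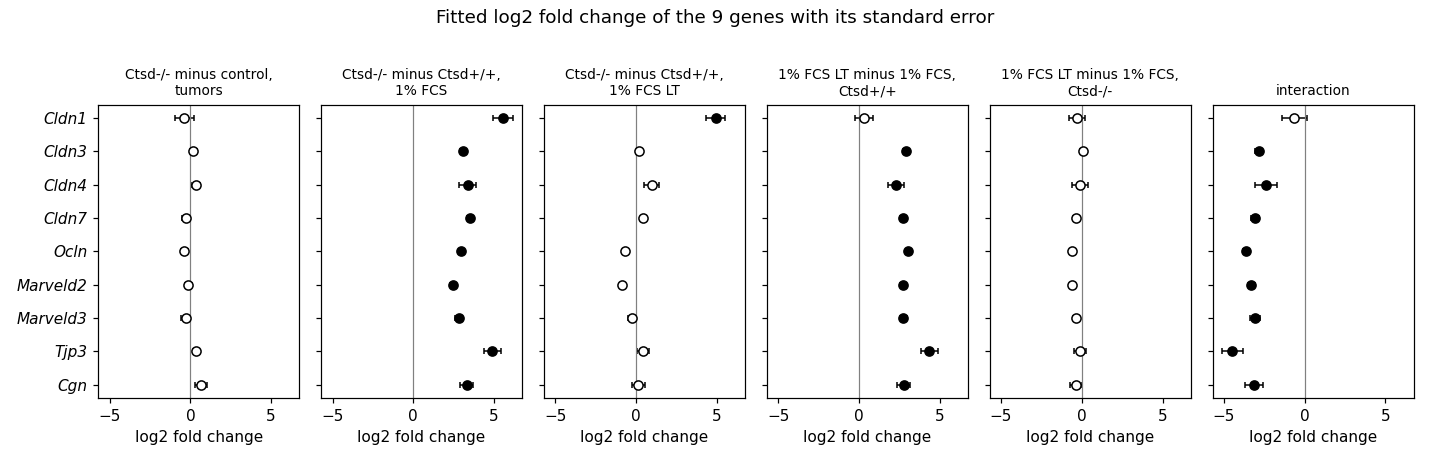
Log2 FC of the 9 genes with its SE, in 6 panels for the 6 comparisons, with filled points where the gene passed the threshold. The median of the genes is 3.29 in the genotype difference in 1% FCS, −0.35 in the long-term change of *Ctsd*-/- cells and −3.09 in the interaction, and in the first of these *Cldn1* (5.55) and *Tjp3* (4.89) are the highest, while in the last *Cldn1* (−0.63) is the 1 gene that did not pass.

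The tumors show the same genes in tissue, which the study sequenced at 18 weeks to complement its work on cultured cells. By edgeR 0 of the 9 genes were higher and 0 lower in *Ctsd*-/- tumors at an unadjusted p under 0.1, beside 8.44% and 8.27% of the 18617 genes tested. In fits of all tumors by group alone 0 had a p under 0.05 with edgeR, DESeq2 or limma-voom, beside 8.94% of all genes with edgeR. This background is unsteady too. With 1 tumor left out 980 to 2156 genes were higher, beside 1572 with all tumors. In these fits 827 to 2309 genes were lower, beside 1540 with all tumors, and a replicate block gave 711 lower. The median log2 FC was −0.12 for the 9 genes and 0.00073 for all genes, with 4 genes above 0 and 5 below. All control libraries carry 1 LR number and all *Ctsd*-/- libraries another, so this number and the genotype cannot be told apart.

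*Cldn3* had 698.5, 527, 725 and 890.4 CPM in control and 937, 891, 645.5 and 739 CPM in *Ctsd*-/- tumors, and *Cldn4* had 227, 298, 143 and 324 CPM in control and 307, 273, 319 and 339 CPM in *Ctsd*-/- tumors. Both genes overlapped between the genotypes, with log2 FC of 0.18 (SE 0.233) and 0.32 (SE 0.260). *Cldn7* had 445, 460.3, 434 and 692 CPM in control and 451, 500, 388 and 311 CPM in *Ctsd*-/- tumors (log2 FC −0.30, SE 0.240), with replicate 4 the highest of the controls and the lowest of the *Ctsd*-/- tumors. *Cldn1* varied most among the *Ctsd*-/- tumors, from 10.6 to 96.7 CPM, beside 29.2 to 71.5 CPM in control tumors (log2 FC −0.39, SE 0.598). *Ocln* had 52.4, 53.8, 60.6 and 67.7 CPM in control and 60.8, 36.1, 48.5 and 34.0 CPM in *Ctsd*-/- tumors. Of the *Ctsd*-/- tumors 3 lay below all controls and replicate 1 lay among them (log2 FC −0.39, SE 0.222, adjusted p = 0.609). *Marveld2* (45.4 to 57.8 CPM in control, 36.1 to 61.8 CPM in *Ctsd*-/- tumors) and *Marveld3* (36.5 to 77.1 and 29.4 to 60.3 CPM) overlapped widely. *Tjp3* was the 1 gene of 9 whose *Ctsd*-/- tumors all lay above the controls, beside 2.26% of all genes, with 10.2, 13.3, 14.3 and 14.1 CPM in control and 16.0, 16.0, 16.8 and 16.2 CPM in *Ctsd*-/- tumors. Still, the difference was small (log2 FC 0.32, SE 0.192, adjusted p = 0.616). *Cgn* had 119, 75.2, 46.4 and 32.0 CPM in control and 96.7, 114, 80.5 and 137 CPM in *Ctsd*-/- tumors (log2 FC 0.65, SE 0.372, adjusted p = 0.609), with overlap through control replicate 1.

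Some of these came past an unadjusted p of 0.1 under other settings. *Cgn* did with limma-voom (log2 FC 0.79) and without control replicate 1 (1.06), *Ocln* did with limma-voom (−0.42) and without *Ctsd*-/- replicate 1 (−0.57), and *Cldn1* did without *Ctsd*-/- replicate 1 (−1.30). With the mean log2 CPM of the epithelial reference genes as a covariate in edgeR *Cldn4* passed (0.61), there with an unadjusted p under 0.05 and an adjusted p of 0.407. Control tumor 4 stood apart in depth, with the fewest counts on genes (49725437) and the largest share of reads set aside as lying on several genes, 15.6% beside 7.11% to 12.4% in the other 7 tumors, and without it *Cldn4* (0.48) and *Tjp3* (0.36) passed.

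Some markers of other cell types passed the unadjusted threshold between the tumor groups, and 0 of them had an adjusted p under 0.05 in edgeR. All 10 adipocyte markers were higher in *Ctsd*-/- tumors, and their sum was 1366, 4496, 677 and 6557 CPM in control and 10690, 4878, 19040 and 36750 CPM in *Ctsd*-/- tumors, with *Cfd* or *Car3* as the most abundant. Of 8 endothelial markers 6 were higher, with sums of 117, 134, 59.2 and 59.8 CPM in control and 74.8, 132, 316 and 304 CPM in *Ctsd*-/- tumors, mostly *Pecam1*. Of 10 leukocyte markers 1 was higher, with sums of 470, 1236, 722 and 915 CPM in control and 1217, 555, 609 and 604.5 CPM in *Ctsd*-/- tumors, led by *Lyz2*. Of 10 fibroblast markers 1 was higher, a count that changed in all 8 fits with 1 tumor left out (0 to 4) and was 5 with the epithelial covariate, with sums of 2630, 4097, 1219 and 1293 CPM in control and 2003, 2839, 3862 and 2831 CPM in *Ctsd*-/- tumors, led by collagens or *Vim*. Of the 15 epithelial reference genes 0 were higher and 0 lower by edgeR (median log2 FC −0.05; at most 1 and 2 with 1 tumor left out), with sums of 7078, 7815, 6203 and 9942 CPM in control and 5705, 6019, 7469 and 6296 CPM in *Ctsd*-/- tumors. The 9 genes made up 20.4% to 25.6% of the epithelial sum in control and 21.5% to 36.6% in *Ctsd*-/- tumors. The part of the adipocyte and endothelial markers in the tumor values was not tested.

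Tumors and cells differ in material, RNA input and strandedness of the counts, so their levels are set side by side without a test. *Tjp3* had 14.6 ± 2.17 CPM over the 8 tumors (SD, n = 8) and *Cldn7* had 460.2 ± 109, and all 12 cell samples lay below all tumors for both. *Cldn4* had 279 ± 65.1 CPM in tumors, and 10 of 12 cell samples lay above every tumor, with means of 7.91 times the tumor mean in *Ctsd*-/- cells in 1% FCS and 3.80 times in *Ctsd*+/+ cells in 1% FCS LT. *Cgn* had 87.5 ± 36.2 CPM in tumors and was above every tumor in 9 of 12 cell samples. *Cldn1* had 46.3 ± 29.0 CPM in tumors, a mean between those of the *Ctsd*-/- cells (2.32 and 1.87 times the tumor mean in 1% FCS and 1% FCS LT) and the *Ctsd*+/+ cells (0.0486 and 0.0613 times). For this gene 3 of 12 cell samples lay above and 6 below every tumor. Of the other genes, *Cldn3* (757 ± 141 CPM in tumors) and *Marveld3* (48.7 ± 15.9) lay below every tumor in 10 of 12 cell samples. *Ocln* (51.7 ± 11.9) and *Marveld2* (48.7 ± 8.52) had 0.189 and 0.194 times the tumor mean in *Ctsd*+/+ cells in 1% FCS, and between 0.694 and 1.55 times in the other groups of cells.

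Of the other 49 tight junction genes 34 were tested in cells. In 1% FCS 11 were higher and 6 lower in *Ctsd*-/- cells, beside 10.3% and 14.6% of all genes (median log2 FC 0.28). In 1% FCS LT 4 were higher and 2 lower, close to the background of 9.24% and 10.1% (median 0.16; 3 to 5 and 1 to 2 with 1 sample left out). The long-term change was higher for 2 and lower for 0 in *Ctsd*-/- cells, beside 1.11% and 0.369% (median −0.05; 0 to 2 higher with 1 sample left out), and higher for 12 and lower for 5 in *Ctsd*+/+ cells, beside 11% and 12.3% (median 0.22). The interaction was higher for 5 and lower for 9, beside 11% and 8.12% (median −0.21). Genes with large differences included the apical polarity protein *Crb3*, with 37.2 CPM in *Ctsd*-/- and 2.13 CPM in *Ctsd*+/+ cells in 1% FCS (log2 FC 4.11, adjusted p = 1.57e-06). The claudin *Cldn23* (9.31 against 0.595 CPM, log2 FC 3.94) and the polarity scaffold *Pard6b* (163 against 20.8 CPM, log2 FC 2.97) were next. *Crb3* and *Cldn23* also rose over 12 weeks in *Ctsd*+/+ cells (log2 FC 3.71 and 2.96), as did *Cldn8*, by a count ratio of 13.2 (95% interval 6.46 to 31.2, counting error only). Of the 8 *Cldn8* counts in 1% FCS replicate 1 holds 6, and the log2 FC of 3.65 became 5.01 without it. In the interaction *Crb3* had −3.68, the atypical protein kinase C gene *Prkcz* −3.27 and *Cldn23* −2.81, the same direction as in the 8 genes that passed.

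A smaller group went the opposite way. The junctional adhesion molecule gene *Jam3* had 16.4 CPM in *Ctsd*+/+ cells in 1% FCS and 0 counts in all 3 *Ctsd*-/- samples, at least 605-fold lower against a floor of 3 counts over the group. It fell in *Ctsd*+/+ cells as well, by a count ratio of 232 (95% interval 117.5 to 538), to 8 counts in 1% FCS LT, where the *Ctsd*-/- cells again had 0 counts. That fall had a log2 FC of −7.81, and −8.60 without *Ctsd*+/+ replicate 2 of 1% FCS LT. *Ildr2*, which encodes an angulin of tricellular contacts, was higher in *Ctsd*+/+ than in *Ctsd*-/- cells in 1% FCS by a count ratio of 44.4 (95% interval 25.7 to 83.9) and fell over 12 weeks in *Ctsd*+/+ cells by a ratio of 59.0 (95% interval 31.8 to 124). Replicate 1 of *Ctsd*+/+ cells in 1% FCS holds 362 of these 540 counts, and without it the log2 FC went from −5.47 to −4.36 between genotypes and from −5.85 to −4.75 over 12 weeks, the latter being −6.95 without *Ctsd*+/+ replicate 2 of 1% FCS LT. In 1% FCS LT it was higher in *Ctsd*-/- cells (log2 FC 6.52) with values from 0.0484 to 21.8 CPM that overlapped the *Ctsd*+/+ samples. Replicate 2 holds 845 of its counts there, and without it the log2 FC was 4.22 and the interaction 9.69. No *Ildr2* result passed with limma-voom: the adjusted p was 0.24 in 1% FCS LT, 0.13 in 1% FCS, 0.117 for the fall over 12 weeks and 0.085 for the interaction. These were the highest over the alternatives of each result, whose lowest were 0.000185, 0.000967, 0.000727 and 8.03e-07. *Pard6g* was lower in *Ctsd*-/- cells in 1% FCS (3.58 against 25.7 CPM, log2 FC −2.84), lower after 12 weeks in *Ctsd*+/+ cells (−2.54), higher in *Ctsd*-/- cells in 1% FCS LT (1.25) and higher after 12 weeks in *Ctsd*-/- cells (1.54), with an interaction of 4.09. With edgeR the interaction was 11.99 for *Ildr2* and 1.85 for *Marveld1*. In 1% FCS LT the scaffold *Magi1* was higher in *Ctsd*-/- cells (1.39) and the scaffold *Mpdz* lower (−1.22), and over 12 weeks in *Ctsd*-/- cells *Jam2* rose by a log2 FC of 1.52. The long-term rises of *Pard6g* and *Jam2* in *Ctsd*-/- cells and the lower level of *Jam3* in *Ctsd*-/- cells in 1% FCS LT did not hold when several of the single samples were left out. Nor was the rise of *Jam2* called with limma-voom or in the samples of 1 LR number. The lower level of *Jam3* in 1% FCS LT was not called with limma-voom, with a replicate block or in the samples of 1 LR number. The difference of *Ildr2* in 1% FCS missed the threshold without replicate 2 or 3 of the *Ctsd*-/- cells (adjusted p = 0.0529 and 0.053), and that of *Pard6g* in 1% FCS LT without replicate 1 of the *Ctsd*-/- cells (log2 FC 0.98).

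In tumors 5 of 39 other tight junction genes tested were higher and 1 lower in *Ctsd*-/- tumors, beside 8.44% and 8.27% of all genes (median log2 FC 0.13). With 1 tumor left out 3 (without *Ctsd*-/- tumor 3) to 10 (without *Ctsd*-/- tumor 1) were higher, and 8 without the filter on low counts. *Cldn15* (16.9 against 2.90 CPM, log2 FC 2.54), *Cldn5*, the claudin of endothelium (28.7 against 5.28 CPM, log2 FC 2.44), and *Cldn22* (2.38 against 0.687 CPM, log2 FC 1.79) were the largest, and each overlapped between the genotypes. Without *Ctsd*-/- tumor 3 the log2 FC of *Cldn5* dropped to 1.41 and that of *Cldn15* was 2.09, and *Cldn22* had 1.29 without *Ctsd*-/- tumor 4. *Cldn2*, a pore-forming claudin, was lower with 38.2 ± 10.2 CPM in *Ctsd*-/- and 69.8 ± 12.4 CPM in control tumors (SD, n = 4; log2 FC −0.87). Adjusted over all genes, these 4 had p-values of 0.416 to 0.479 in edgeR.

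Transcription factors known to act on claudin and occludin genes were measured as a list of 11. In *Ctsd*-/- cells 3 were higher and 5 lower in 1% FCS, beside 10.3% and 14.6% of all genes, and 2 higher and 5 lower in 1% FCS LT, beside 9.24% and 10.1%. The long-term change was higher for 1 and lower for 0 in *Ctsd*-/- cells, beside 1.11% and 0.369%, and higher for 5 and lower for 4 in *Ctsd*+/+ cells, beside 11% and 12.3%. In tumors 2 were higher and 0 lower, beside 8.44% and 8.27%. The interaction was higher for 4 and lower for 4, beside 11% and 8.12%. It was lower for *Grhl2*, *Grhl3*, *Ovol1* and *Ovol2*, activators or guardians of epithelial genes, and higher for the repressors *Snai1*, *Snai2*, *Zeb1* and *Zeb2*. Only factors called in the interaction are named. The lowest genotype log2 FC of the list, −11.95 in 1% FCS and −11.49 in 1% FCS LT, lay outside the named factors. *Grhl2* had group means of 25.5 CPM in *Ctsd*+/+ and 117 CPM in *Ctsd*-/- cells in 1% FCS, and of 126 and 92.2 CPM in 1% FCS LT, the same low group as for the 9 genes (interaction −2.64, SE 0.182, adjusted p = 2.71e-06). *Ovol2* (1.12, 4.68, 5.12 and 2.53 CPM in the same order, interaction −3.07) followed it. *Ovol1* had 0.854, 3.12, 10.8 and 6.16 CPM (−2.66) and *Grhl3* had 0.09996, 0.0785, 4.57 and 0.231 CPM (−3.93). Like *Grhl2* and *Ovol2*, both had their highest mean in *Ctsd*+/+ cells in 1% FCS LT. Without *Ctsd*+/+ replicate 3 of 1% FCS the interactions of *Ovol1* and *Grhl3* were −3.25 and −5.07. The *Grhl3* interaction did not pass in the samples of 1 LR number (−3.27, adjusted p = 0.12, the highest over its alternatives, which begin at 0.000278). *Zeb1* had the reverse pattern, with 80.4, 0.811, 1.81 and 14.0 CPM (interaction 9.58, SE 0.837, adjusted p = 1.22e-05), and so had *Zeb2* with 62.5, 11.8, 1.64 and 24.5 CPM (6.31). *Snai1* (37.3, 3.44, 9.03 and 2.07 CPM, 1.32) and *Snai2* (23.0, 6.04, 2.59 and 4.03 CPM, 2.56) were highest in *Ctsd*+/+ cells in 1% FCS as well. Whether these factors act on the 9 genes here was not tested.

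Across the 12 cell samples Pearson's r of log2 CPM was above 0 for 36 of 36 pairs of the 9 genes, with a median of 0.926 and a range of 0.432 to 0.985, and since the samples form 4 groups these values mostly restate the group levels. Over the 8 tumors 20 of 36 pairs were above 0, with a median of 0.029 and a range of −0.754 to 0.900. Among 11329 other genes in cells, the 5 whose log2 CPM was most alike to the mean of the 9 over 12 samples were *Tnk1* (r = 0.997), *Map3k9* (0.993), *Padi4* (0.992), *Crb3* (0.991) and *Tmem102* (0.991). *Tnk1*, a non-receptor tyrosine kinase gene, had means of 8.32 and 49.6 CPM in *Ctsd*+/+ and *Ctsd*-/- cells in 1% FCS, and of 38.3 and 41.2 CPM in 1% FCS LT.

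Promoter sequences are shown for 4 of the 9 genes. For 8 of the 9 genes a promoter was found in the RefSeq promoters of GRCm38.p6, and the name of the remaining gene is *Marveld3*. The E-box CAGGTG, read on both strands so that CACCTG counts too, was chosen after the values were seen and searched in the 250 bases before each start. It was in 5 of 12 promoters of 4 of the 8 genes (*Cldn4*, *Cldn7*, *Ocln* and *Tjp3*), and in 5657 of all 32851 promoters (17.2%), or 5252 of 27025 genes (19.4%). The grainyhead motif AACCGGTT, the same on both strands, was in 0 of the 12 promoters and in 38 of all promoters (0.116%). The sequences run 5′ to 3′ toward the start of the gene, with E-boxes in capitals: *Cldn1*, the 1 gene past the fold threshold between the genotypes at both culture times, from chr16:26371840-26372089 (minus strand), *Cldn3* from chr5:134985964-134986213 (plus strand), its neighbour *Cldn4* from chr5:134946935-134947184 (minus strand) with an E-box that begins at −14, and the scarce *Tjp3* from chr10:81291582-81291831 (minus strand) with one that begins at −108.
Cldn1: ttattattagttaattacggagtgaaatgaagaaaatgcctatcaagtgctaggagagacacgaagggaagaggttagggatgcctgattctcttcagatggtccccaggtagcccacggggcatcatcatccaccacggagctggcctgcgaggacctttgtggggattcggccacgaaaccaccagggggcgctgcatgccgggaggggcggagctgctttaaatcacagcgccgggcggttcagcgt
Cldn3: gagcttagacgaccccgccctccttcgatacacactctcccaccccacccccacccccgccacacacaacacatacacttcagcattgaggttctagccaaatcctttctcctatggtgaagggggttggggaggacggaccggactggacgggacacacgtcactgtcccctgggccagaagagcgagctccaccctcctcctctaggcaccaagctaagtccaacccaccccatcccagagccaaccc
Cldn4: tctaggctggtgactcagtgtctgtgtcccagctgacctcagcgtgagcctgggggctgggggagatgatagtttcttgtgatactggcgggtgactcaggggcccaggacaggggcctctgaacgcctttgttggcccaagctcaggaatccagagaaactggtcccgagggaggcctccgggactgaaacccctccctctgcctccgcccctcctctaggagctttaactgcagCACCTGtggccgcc
Tjp3: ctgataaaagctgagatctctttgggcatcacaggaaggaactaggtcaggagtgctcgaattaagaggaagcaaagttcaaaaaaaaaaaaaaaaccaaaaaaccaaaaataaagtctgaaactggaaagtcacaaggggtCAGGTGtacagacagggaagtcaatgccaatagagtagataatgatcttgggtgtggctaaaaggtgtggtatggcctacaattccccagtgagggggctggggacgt
A match only says that these letters lie in the window.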

How the data were processed

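The count files are those deposited by the authors, who trimmed reads with Trimmomatic and counted them with STAR (version not given) on GRCm38/mm10. Counts of all reads were used for tumors, where 52.8% to 53.7% of stranded counts lay on the opposite strand, and counts of that strand for cells (97.1% to 97.3%). Symbols come from GENCODE M21, which matched 45143 of 45706 identifiers. Libraries were scaled by TMM, low genes were removed by filterByExpr, and tumors (18617 genes) and cells (15178 genes) were fitted apart with quasi-likelihood tests in edgeR 4.0.16 under R 4.3.3. Adjusted p-values are Benjamini-Hochberg over the genes tested. A call needed an unadjusted p under 0.1 in tumors, and in cells a log2 FC beyond 1 in size with an adjusted p under 0.05. The 9 genes and the marker lists were chosen with earlier results of these data known, and 49 of 50 other tight junction genes were matched. Named among those are at most the 3 genes with the largest changes in each direction that passed the call. Vim, Cdh1 and the motifs were chosen after values were seen. Alternatives were DESeq2 1.42.0, limma-voom (limma 3.58.1), other scaling and filters, a replicate block, an epithelial covariate, 1 LR number only and leaving out each sample. A changed call rule on the main fit was a further one. Ranges of adjusted p over alternatives cover only those that keep all samples or 1 LR number. The scripts were tested on simulated data. Intervals of count ratios cover counting error only.

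Limits: groups hold 3 or 4 samples, and the cells come from 1 line per genotype as the study describes them. In tumors the LR number in the library label follows the genotype. Bulk RNA does not separate the share of a cell type from the RNA per cell. Tumor counts ignore strand, so reads lying on 2 overlapping genes are set aside, and 7.11% to 15.6% of tumor reads were lost to several genes at once. RNA levels say nothing of protein or of junctions. The unadjusted threshold in tumors lets many genes pass by chance, and 1 gene of 18617 had an adjusted p under 0.05. Comparisons that share the Ctsd+/+ samples in 1% FCS are not independent.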

Additional observations from a re-analysis of the deposited data

Results flagged for a closer look

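In groups of 4 a single far value is found by chance in about 1 of 20 groups, and 32 groups were examined with 2 found. *Cldn7* in control tumor replicate 4 had 692 CPM, while the other controls had 434 to 460.3 CPM. The leukocyte markers in *Ctsd*-/- tumor replicate 1 summed to 1217 CPM, while the other *Ctsd*-/- tumors had 555 to 609 CPM.

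The long-term change differed between the genotypes of the cells for 8 of the 9 genes, with an interaction (log2 scale) of −2.84 for *Cldn3*, −2.41 for *Cldn4*, −3.08 for *Cldn7*, −3.64 for *Ocln*, −3.30 for *Marveld2*, −3.09 for *Marveld3*, −4.47 for *Tjp3* and −3.15 for *Cgn*. Other tight junction genes with a difference were *Cldn23* (−2.81), *Marveld1* (1.85), *Ildr2* (11.99, not called with limma-voom, adjusted p = 0.085, the highest over its alternatives, which begin at 8.03e-07), *Crb3* (−3.68), *Pard6g* (4.09) and *Prkcz* (−3.27). Among the transcription factors they were *Grhl2* (−2.64), *Grhl3* (−3.93, not called in the samples of 1 LR number), *Ovol1* (−2.66), *Ovol2* (−3.07), *Snai1* (1.32), *Snai2* (2.56), *Zeb1* (9.58) and *Zeb2* (6.31). *Ildr2* was 9.69 without *Ctsd*-/- replicate 2 of 1% FCS LT, and without *Ctsd*+/+ replicate 3 of 1% FCS *Grhl3* was −5.07, *Ovol1* −3.25, *Cldn4* −3.07 and *Cgn* −3.95.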

How the results depend on the processing

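Of 481 results of the 9 genes under other tools, scaling, filters, models and call rules, 468 kept their call and direction, 9 gained a call and 4 changed sign. The changed call rule reuses the main fit. Under it none of the 9 genes could change sign or lose a call, so its results add nothing to the count of stable ones. Of 396 results with 1 sample left out, 379 were unchanged, 2 lost a call, 7 gained one and 8 changed sign. With DESeq2 size factors in edgeR the median shift over all genes of a comparison was at most −0.0172 in log2 FC. Tumors beside cells and the strand columns were added after the data were seen, as 2 further alternatives.

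In tumors the 0 genes higher became 1 with limma-voom (*Cgn*, log2 FC 0.79), 1 without a filter on low counts (*Cgn*, 0.65), 1 with a replicate block (*Cgn*, 0.79) and 1 with the epithelial covariate (*Cldn4*, 0.61). With 1 tumor left out the count ran from 0 to 2: *Cldn4* (0.48) and *Tjp3* (0.36) without control 4, *Cgn* without control 1 (1.06) and without *Ctsd*-/- tumor 3 (0.76). The 0 genes lower became 1 with limma-voom (*Ocln*, −0.42) and 2 without *Ctsd*-/- tumor 1 (*Cldn1*, −1.30, and *Ocln*, −0.57).

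In 1% FCS all 9 genes were higher in every fit with 1 sample left out, and 8 where 10 counts were required in every sample, since *Tjp3* was then not tested. The median log2 FC was 2.94 in the samples of 1 LR number and 2.97 to 3.57 with 1 sample left out. *Cldn1* ran from 5.15 to 6.62 and *Cgn* from 2.96 to 4.07. In 1% FCS LT *Cldn1* ran from 4.64 to 5.73. Without the fold threshold 2 genes were higher (*Cldn1*, *Cldn7*) and 2 lower (*Ocln*, *Marveld2*), close to the background of 20.5% and 19.1% of all genes, and *Cgn* was −0.0683 in 1 LR number and ran from −0.0648 to 0.30 with 1 sample left out.

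For the long-term change in *Ctsd*-/- cells 1 gene (*Ocln*) was lower without the fold threshold. *Cldn3* was −0.0319 in 1 LR number and ran from −0.0593 to 0.13, *Cldn4* from −0.41 to 0.0908 and *Tjp3* from −0.33 to 0.0578. For *Ctsd*+/+ cells *Cldn1* was −0.75 in 1 LR number and ran from −0.49 to 1.41, the last a call (adjusted p = 0.0496). Over the alternatives that keep all samples or 1 LR number its adjusted p was 0.351 to 0.706. In the interaction *Cldn1* was 0.18 in 1 LR number and ran from −1.73 to 0.18. *Cldn4* was −3.07 without *Ctsd*+/+ replicate 3 of 1% FCS and missed the threshold without *Ctsd*-/- replicate 1 of 1% FCS LT (−2.22, adjusted p = 0.0526) or replicate 2 (−2.34, adjusted p = 0.0515). Over the alternatives that keep all samples or 1 LR number its adjusted p was 0.00082 to 0.0219.

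Replicate numbers were not taken to pair the samples, since that needed every same-number correlation above 0.1 or labels that say so. As a hint from the data only, each sample correlated best with its own number in 3 of 3 pairs between genotypes in 1% FCS and between culture times in *Ctsd*-/- cells. The correlation of residuals between samples of the same number ran from −0.303 to −0.00755 in tumors, 0.09997 to 0.362 between genotypes in 1% FCS, 0.00181 to 0.119 in 1% FCS LT, 0.0766 to 0.192 between culture times in *Ctsd*-/- and −0.143 to −0.0326 in *Ctsd*+/+ cells.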
